A study of Mus musculus with 2 samples.

Results

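Enzymes that break down amino acids were compared between precancerous livers of mice with and without Kdm3a, a demethylase of lysine 9 on histone H3. The 45 genes examined encode enzymes of histidine, serine, tyrosine, tryptophan, glycine, branched-chain amino acid, lysine, proline and cysteine breakdown, the aminotransferases that move amino groups between pathways, and 2 related enzymes. Each gene was read through its brightest probe set, the one with the highest mean signal over both arrays among those that the platform annotation assigns to that gene alone. A value was obtained for 42 of the 45, out of 11693 genes compared in all. Sds, Sdsl and Amt were not analysed here, which leaves serine breakdown without a value.

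Both arrays held liver RNA of mice with a Pik3ca transgene in hepatocytes (Pik3caTg), which encodes the catalytic subunit of phosphoinositide 3-kinase. One array was of the genotype Pik3caTg;Kdm3aWT, with intact Kdm3a, and the other of Pik3caTg;Kdm3aKO, the Kdm3a knockout. The mice ate regular chow under a 12 h light and dark cycle; the promoter of the transgene, the age, sex and number of the animals, and whether RNA was pooled, are not given in the labels. No array without the transgene was compared. A single array per genotype allows neither a test nor an error between animals, so every difference describes these 2 arrays alone. Kdm3a itself had a signal of 719.9 on the wild-type array and 61.6 on the knockout array, by its 1 probe set; whether that probe set lies in the deleted part is not known here.

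The liver is the main site where amino acids not needed for protein are dismantled: their nitrogen is passed to glutamate and aspartate and leaves as urea, and their carbon skeletons enter the tricarboxylic acid cycle, glucose or ketone bodies. Many of the genes are induced by glucocorticoids and glucagon and by protein-rich food, and repressed by insulin. Several, such as Hal, are higher in periportal hepatocytes, while Oat is a gene of hepatocytes next to the central vein.

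Of the 42 genes with a value, 40 had a higher signal on the knockout array, against 5592 of the 11693 genes compared. At least 2-fold higher were 17 and at least 2-fold lower were 0, with the other 25 within 2-fold. Among all genes compared, 3.83% were at least 2-fold higher (448 genes) and 8.96% at least 2-fold lower (1048 genes), or 685 and 796 genes when the poly-A controls set the scale, and 250 and 702 with low signals raised to the 60th instead of the 40th percentile. The median log2 ratio of knockout over wild type was 0.91 for the amino acid genes and -0.02 for all genes. Bright genes leaned upwards as a whole: in the fifth of genes with the highest signal, which held 38 of the 42, 4.49% were at least 2-fold higher, 4.40% were at least 2-fold lower and the median was 0.12. For those 38, 16 were at least 2-fold higher and the median was 0.93. All 42 lay well above the low-signal filter of 73.7 on both arrays, the lowest being Aldh4a1 at 273.2 and 557.9, so none was kept by its knockout signal alone.

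**Figure D1:**
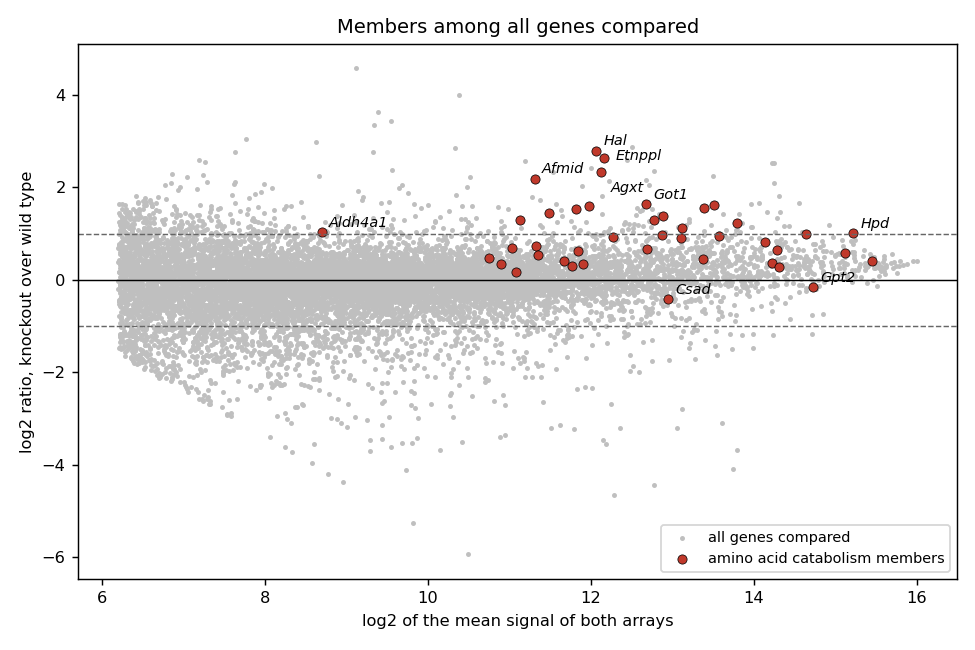
Log2 ratio of knockout over wild type (vertical axis) against log2 of the mean signal of both arrays (horizontal axis) for 11693 genes (grey) and the 42 amino acid catabolism genes (red); dashed lines mark 2-fold. The red points lie mostly above 0, with Hal highest at 2.80 and Csad lowest at -0.42.

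In histidine breakdown each of the 4 enzymes was at least 2-fold higher on the knockout array, as were all 3 of the proline and ornithine group. Hal, the ammonia-lyase that turns histidine into urocanate and commits it to breakdown, had a signal of 1079 on the wild-type array and 7496 on the knockout array. The knockout signal was 6.95-fold higher, the highest ratio of the 42 genes by brightest probe set (log2 ratio 2.80). Uroc1, the urocanate hydratase of the next step, had 4077 and 9925 (log2 ratio 1.28), and its other probe set 272.3 and 545.8. Amdhd1, which opens the ring of imidazolonepropionate, had 1842 and 5360 (1.54), with 1.67 by its other probe set. Ftcd hands the last carbon to tetrahydrofolate and releases ammonia; it had 5617 and 12252 (1.12), which lay just under 2-fold with scaling on the hybridisation controls (0.994) and after quantile normalization (0.998). The ratio was thus largest at the entry step and between 1.12 and 1.54 at the later steps.

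The start regions of the 4 histidine genes are shown because these genes stood higher together, with that of Agxt, a non-histidine gene with one of the highest ratios, beside them. Each runs from 250 bases before to 50 bases after the gene's start, 5′ to 3′ on the gene's own strand, in RefSeq's mouse build GRCm38.p6. Hal lies at chr10:93488518-93488817 on the plus strand, Uroc1 at chr6:90333039-90333338 on the plus strand, Amdhd1 at chr10:93539984-93540283 on the minus strand, Ftcd at chr10:76575398-76575697 on the plus strand and Agxt at chr1:93134990-93135289 on the plus strand. Capitals mark matches, on either strand, to any of 9 short motifs: TTGCNNAA (C/EBP), TGACG (cyclic AMP response element, core), CAAAGTCCA (HNF4), GTTAAT (HNF1, partial), GTAAACA (FOXO), AGAACA (glucocorticoid receptor, partial), TGANTCA (AP-1), CCAAT and TATAAA.
Hal: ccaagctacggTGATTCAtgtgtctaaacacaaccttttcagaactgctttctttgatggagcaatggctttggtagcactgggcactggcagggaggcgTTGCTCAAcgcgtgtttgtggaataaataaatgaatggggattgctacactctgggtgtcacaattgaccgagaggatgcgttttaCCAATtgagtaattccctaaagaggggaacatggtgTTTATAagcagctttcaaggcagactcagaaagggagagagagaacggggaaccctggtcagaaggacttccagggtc
Uroc1: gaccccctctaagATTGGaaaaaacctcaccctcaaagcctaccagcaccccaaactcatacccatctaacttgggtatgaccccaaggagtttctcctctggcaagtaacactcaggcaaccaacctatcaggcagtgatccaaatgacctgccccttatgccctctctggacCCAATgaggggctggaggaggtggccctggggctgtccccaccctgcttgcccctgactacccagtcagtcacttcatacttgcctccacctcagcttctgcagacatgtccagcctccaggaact
Amdhd1: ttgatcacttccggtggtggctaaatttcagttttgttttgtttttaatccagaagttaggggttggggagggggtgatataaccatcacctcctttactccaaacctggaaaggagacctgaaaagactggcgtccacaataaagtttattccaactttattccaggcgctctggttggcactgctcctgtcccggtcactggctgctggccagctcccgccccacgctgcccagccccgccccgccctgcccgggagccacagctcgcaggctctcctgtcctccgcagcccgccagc
Ftcd: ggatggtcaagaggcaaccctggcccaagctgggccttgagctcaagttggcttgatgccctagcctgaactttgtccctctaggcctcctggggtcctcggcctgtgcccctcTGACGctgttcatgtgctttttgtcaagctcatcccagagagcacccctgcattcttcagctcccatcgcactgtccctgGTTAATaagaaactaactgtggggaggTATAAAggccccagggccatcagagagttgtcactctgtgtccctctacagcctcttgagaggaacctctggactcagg
Agxt: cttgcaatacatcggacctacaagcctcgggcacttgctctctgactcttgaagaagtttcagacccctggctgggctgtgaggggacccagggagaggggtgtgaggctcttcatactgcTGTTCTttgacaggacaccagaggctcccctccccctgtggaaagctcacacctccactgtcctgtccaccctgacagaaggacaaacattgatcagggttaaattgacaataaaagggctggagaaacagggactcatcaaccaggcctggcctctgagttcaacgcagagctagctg

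A match is a description of the letters and not of a bound factor. The Hal window held an AP-1 match beginning at position -239 from the start, a C/EBP match at -150, a CCAAT box at -64 and a TATA match at -28. Ftcd held the core of a cyclic AMP response element at -136, an HNF1 match at -56 and a TATA match at -29, and Uroc1 held 2 CCAAT matches. Agxt held a glucocorticoid receptor match at -129, and Amdhd1 held no match to these letters; no match overlapped another in the 5 windows. Start regions were found for 37 of the 42 genes, 1 window each. CCAAT stood in 20 of the 37 (54.1%) and in 8 of the 16 that were at least 2-fold higher (50%), against 37.9% of 27025 windows of all genes. For the C/EBP letters the shares were 13.5% of the 37, 12.5% of the 16 and 10.8% of all; for AGAACA they were 13.5%, 12.5% and 19.0%, and for TGACG 16.2%, 18.8% and 21.0%. TGANTCA stood in 5.41%, 12.5% and 7.93%, and GTTAAT in 8.11%, 12.5% and 7.20%. TATAAA stood in 13.5%, 12.5% and 14.2%, GTAAACA in 5.41%, 0% and 3.55%, and CAAAGTCCA in 0%, 0% and 0.477%.

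Tyrosine breakdown, which also receives the carbon of phenylalanine, was higher at each of its 5 enzymes in a narrow range. Tat, the aminotransferase that begins the pathway and a classical glucocorticoid-induced gene, had signals of 8511 and 19832 on the wild-type and knockout arrays (log2 ratio 1.22). Hpd, the dioxygenase of 4-hydroxyphenylpyruvate, had 25381 and 50886, which is 2.005-fold and so at the edge of the size counted; after quantile normalization its log2 ratio was 0.74. Fah, which splits fumarylacetoacetate and is a gene of hereditary tyrosinaemia, had 17166 and 34092 (0.99). Gstz1, the maleylacetoacetate isomerase, had 8360 and 16101 (0.95). Hgd, the homogentisate dioxygenase, had 15526 and 24334 (0.65). By their brightest probe sets these 3 lay within 2-fold and Hgd was the lowest of the pathway. A dim second probe set of Hgd, with 35.4 and 193.0, lay below the floor of 46.5 on the wild-type array; with both probe sets averaged, Hgd had a log2 ratio of 1.35, past 2-fold and above that of Tat.

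Tryptophan breakdown through kynurenine was uneven along its steps. Tdo2, the dioxygenase that begins it in liver, had 38446 and 51253 (log2 ratio 0.41), and its 3 probe sets ranged from 0.27 to 0.43. Afmid, the formamidase that acts next, had 916.3 and 4172. Its log2 ratio of 2.19 was the fourth highest of the 42 genes, and its 3 probe sets above the filter ranged from 1.58 to 2.19. Kmo, a monooxygenase of the outer mitochondrial membrane, had 5129 and 8121 (0.66). Kynu, the kynureninase, had 1449 and 2012 (0.47). Haao, which makes the precursor of quinolinate and so leads towards NAD, had 4209 and 10997 (1.39). The pathway thus held 2 genes past 2-fold, at its steps after Tdo2, and 3 within it. The ratio of Afmid exceeded that of Tdo2 by 1.77 on the log2 scale. Tdo2, the far brighter of the 2, had a log2 ratio of 0.12 after quantile normalization and 0.14 after loess, where Afmid had 2.21 and 2.19. The spread (SD) among the probe sets of a gene was 0.25 over the 18 amino acid genes with several, and 0.45 over 4958 genes. This spread holds no error between animals and does not measure differences between genes of unlike brightness.

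Lysine and proline are both taken apart inside mitochondria. Aass, the bifunctional synthase that begins lysine breakdown, had 5460 and 16085 (log2 ratio 1.56), and Gcdh, the glutaryl-CoA dehydrogenase of the later pathway, had 6138 and 11474 (0.90). Prodh, the dehydrogenase that begins proline breakdown, had 2003 and 6068 (1.60). Oat, which converts ornithine to the intermediate shared with proline, had 5768 and 17643 (1.61). Aldh4a1, which oxidises that intermediate to glutamate, had 273.2 and 557.9 (1.03, and 0.90 with scaling on the hybridisation controls). All 3 proline and ornithine genes were at least 2-fold higher on the knockout array.

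Branched-chain amino acids are oxidised by a mitochondrial dehydrogenase complex and then by separate enzymes for leucine, isoleucine and valine. All 11 genes had a higher signal on the knockout array, with log2 ratios from 0.30 to 1.44 and a median of 0.69; 2 were at least 2-fold higher. Dbt, the E2 core of the complex, had 1545 and 4178 (1.44). Ivd, the isovaleryl-CoA dehydrogenase of leucine breakdown, had 1294 and 3181 (1.30), with 1.25 by its other probe set. Subunits of the same complex differed: Bckdhb, the E1 beta subunit, had 3420 and 6466 (0.92), while Bckdha, the E1 alpha subunit, had 3137 and 3868 (0.30), the lowest of the pathway.

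Paired subunits of the biotin-dependent carboxylases were closer together. Mccc1 had 1928 and 3198 (log2 ratio 0.73) and its partner Mccc2 1603 and 2582 (0.69), in the carboxylase of leucine breakdown. Pcca had 2912 and 4465 (0.62) and its partner Pccb 1675 and 2133 (0.35), in the carboxylase of propionyl-CoA. Auh, the hydratase that follows Mccc1 and Mccc2, had 2134 and 3101 (0.54). In valine breakdown, Hibadh had 13048 and 22953 (0.81) and Hibch, the hydrolase before it, 3389 and 4265 (0.33). The valine genes had higher ratios by their other probe sets, 1.12 for Hibadh and 0.56 for Hibch.

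**Figure D2:**
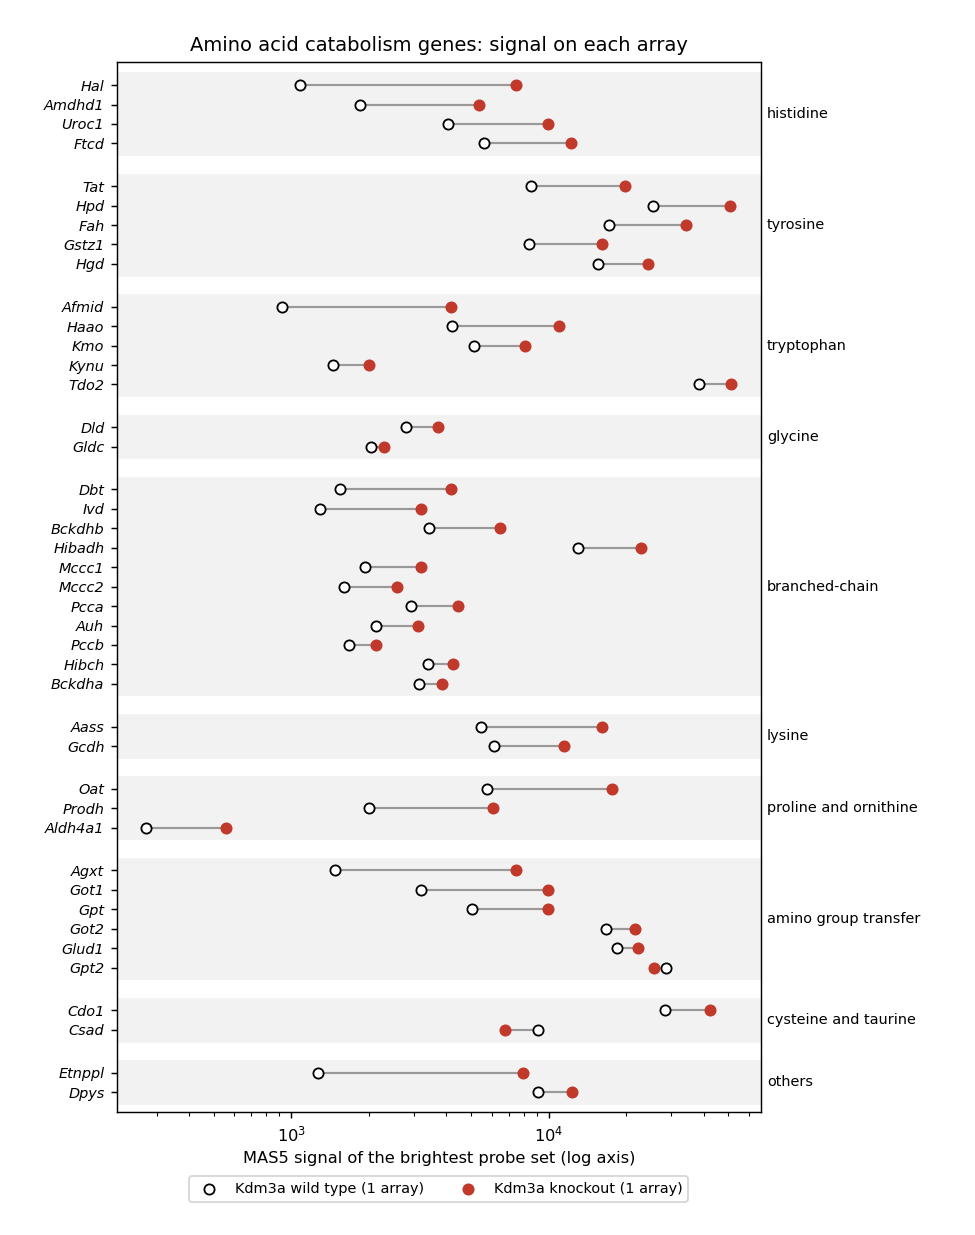
MAS5 signal of the brightest probe set on a log axis for the 42 genes, grouped by pathway; open circles are the wild-type array and filled circles the knockout array, 1 array each. The knockout circle lies to the right for every gene except Gpt2 and Csad.

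The glycine cleavage system, a mitochondrial complex that splits glycine into carbon dioxide, ammonia and a folate-bound carbon, differed little. Gldc, its decarboxylase, had 2041 and 2295 (log2 ratio 0.17). Dld, the lipoamide dehydrogenase it shares with the branched-chain complex, had 2795 and 3715 (0.41). Neither reached 2-fold.

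Among the aminotransferases, which move amino groups onto keto acids with pyridoxal phosphate as cofactor, the cytosolic forms had higher ratios than the mitochondrial forms of the same reaction. Got1, the cytosolic aspartate aminotransferase, had 3205 and 9949 (log2 ratio 1.63), whereas mitochondrial Got2 had 16715 and 21614 (0.37). Gpt, the cytosolic alanine aminotransferase, had 5060 and 9936 (0.97), whereas mitochondrial Gpt2 had 28661 and 25562 (-0.17). The 4 probe sets of Gpt2 ranged from -0.31 to -0.09, and its ratio was at 0 within rounding when the poly-A controls set the scale. The 2 forms thus differed by 1.26 for aspartate and by 1.14 for alanine on the log2 scale. Glud1, the mitochondrial glutamate dehydrogenase that frees ammonia from the glutamate so formed, had 18480 and 22317 (0.27).

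Agxt, which detoxifies glyoxylate to glycine in peroxisomes and is a gene of primary hyperoxaluria, had 1481 and 7487 on the wild-type and knockout arrays. This was a 5.05-fold difference (log2 ratio 2.34), the third highest. Etnppl, a phospho-lyase of phosphoethanolamine related in sequence to the aminotransferases, had 1273 and 7930, or 6.23-fold (2.64). Its dimmer second probe set had 29.1 and 410.3 (3.14), below the floor on the wild-type array. With both probe sets averaged, Etnppl had a log2 ratio of 2.89, above the 2.80 of Hal. Dpys, the dihydropyrimidinase that leads from pyrimidine bases to beta-amino acids, had 9066 and 12305 (0.44), with 3 probe sets from 0.44 to 0.72.

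Cysteine disposal to taurine went both ways. Cdo1, the dioxygenase that begins it, had 28405 and 42557 (log2 ratio 0.58). Csad, the decarboxylase that makes hypotaurine, had 9058 and 6783 (-0.42). Csad had the lowest ratio of the 42 genes, and its ratio stayed below 0 under each of the 5 other scalings tried.

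**Figure D3:**
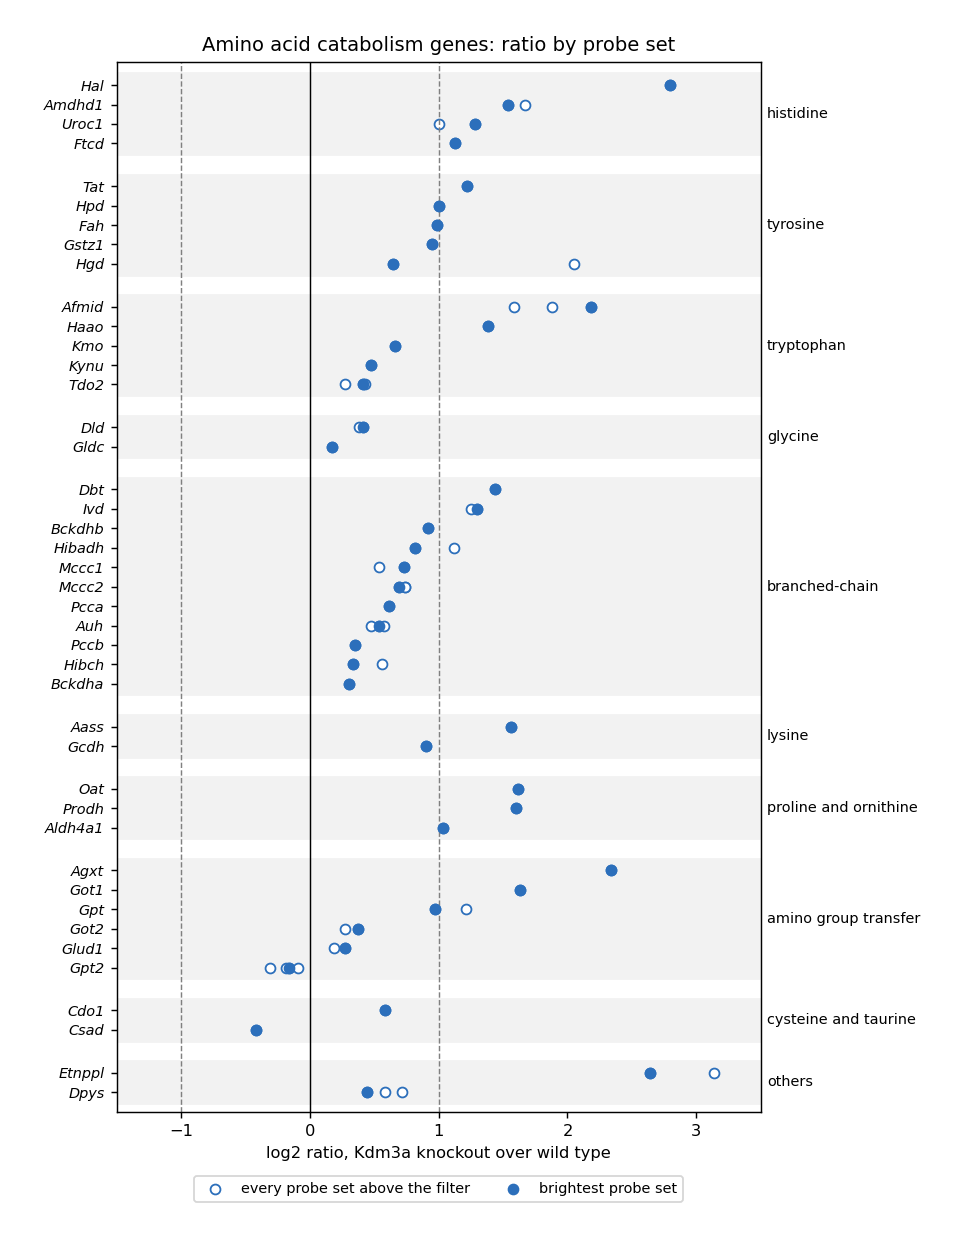
Log2 ratio of knockout over wild type for the 42 genes by pathway; filled points are the brightest probe set, open points the other probe sets above the low-signal filter, and dashed lines mark 2-fold. All 18 genes with several such probe sets had them on the same side of 0.

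Set by properties that the choice of genes did not use, the ratios overlapped widely. Of the 15 genes that begin a pathway or move the amino group, 8 were at least 2-fold higher (median log2 ratio 1.22), as were 9 of 27 genes of later steps (0.81). Enzymes of the cytosol numbered 18, with 9 at least 2-fold higher and a median of 0.997, and those of mitochondria 23, with 7 and 0.69. The 11 pyridoxal phosphate enzymes ran from -0.42 to 2.64 with a median of 0.97, and the other 31 from 0.27 to 2.80 with a median of 0.90. None of these differences was tested.

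Other enzymes of amino acid breakdown stood in the same direction. Of 53 further genes listed, 46 had a probe set; 13 were at least 2-fold higher, 0 were lower and 41 had a positive ratio, with a median of 0.73. With scaling on the hybridisation controls 5 were at least 2-fold higher. The highest were Prodh2, which oxidises hydroxyproline (signals of 1661 and 4706, log2 ratio 1.503), and Aadat, an aminotransferase of lysine and kynurenine breakdown (1780 and 4660, 1.39). The lowest were Bckdk, the kinase that switches off the branched-chain dehydrogenase complex (480.8 and 368.1, -0.39), and Kyat3, a kynurenine aminotransferase (4929 and 4356, -0.18). Ppm1k, the phosphatase that opposes Bckdk, had 3075 and 6404 (1.06) and was named after its value was seen. Bcat1 and Bcat2, the aminotransferases that begin branched-chain breakdown mainly outside the liver, were near or below the floor on both arrays.

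By their brightest probe sets, regulators of these genes differed less than the enzymes. Among the 15 measured, 2 reached 2-fold upwards and 0 downwards, with a median log2 ratio of 0.29. Over all genes compared the shares were 3.83% and 8.96%. Probe sets of some regulators disagreed: Creb1 ranged from -0.87 to 0.11, Hnf4a from -0.33 to 0.80 and Ppargc1a from 0.59 to 1.48. Crtc2, a coactivator of cyclic AMP signalling, was dim at 94.9 and 247.0 (1.38, and 0.59 by its other probe set), and Nr1i3, the nuclear receptor CAR, had 1819 and 4322 (1.25). The lowest were Tcf7l2, a Wnt effector (564.6 and 474.0, -0.25, and 0.23 by its other probe set), and the glucagon receptor Gcgr (3102 and 3156, 0.03).

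Amino acid carriers of the cell and mitochondrial membranes were mixed in direction: 4 of the 19 measured reached 2-fold upwards and 1 downwards, with a median of 0.22. Slc43a1, a carrier of large neutral amino acids (143.4 and 340.8, 1.25), and the glutamate carrier Slc1a2 (893.1 and 1977, 1.15) were highest. Slc7a7, which exports cationic amino acids (293.1 and 113.3, -1.37, and -0.15 by its other probe set), and Slc43a2 (824.6 and 485.2, -0.77) were lowest.

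Markers of liver cell types went in both directions. By their brightest probe sets the 8 measured hepatocyte markers all had a positive ratio, from 0.18 to 0.87, with a median of 0.40 and 0 past 2-fold. Their summed signal was 296329 on the wild-type and 394189 on the knockout array. Another probe set of Hnf4a stood at -0.33 and another of Apob at -0.09. Some of these markers lay near the highest signal of the array, 58523 for wild type and 75018 for knockout. Apoa1, for one, had 54782 and 72444 (0.40). Whether such brightness limited their ratios was not tested. Of 9 periportal markers 2 were at least 2-fold higher (median 0.65), and of 10 pericentral markers 2 (median 0.67); Slc1a2 counts there too, as Hnf4a does among regulators and hepatocyte markers and Cps1 among hepatocyte and periportal markers. Lower on the knockout array by at least 2-fold were 7 of 8 stellate cell and fibroblast markers (summed signal 32444 and 13471, median -1.85), all 5 measured cholangiocyte markers (2521 and 552, -1.75) and 4 of 8 macrophage markers (41824 and 24083, -1.04). Clec4f was the 1 macrophage marker with a positive ratio (1921 and 3181, 0.73). By another probe set the cholangiocyte markers Tspan8 and Epcam stood at 0.69 and -0.08, against -2.96 and -1.75 by their brightest. Sox9 stood at -1.09 by its other probe set. Of 6 endothelial markers 1 was lower (5424 and 5678, -0.19). Kidney tubule and pancreatic acinar markers, checked because both tissues also break down or handle amino acids, had 1 and 2 genes above the filter; Slc5a2 stood at -0.06, Cela1 at -1.03 and Prss2, below the floor on the wild-type array, at 2.06 or more (0.07 by its other probe set). In liver tissue, fewer cells of a type and less RNA per cell cannot be told apart, and the part of cell composition in the ratios of the enzymes was not tested.

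**Figure D4:**
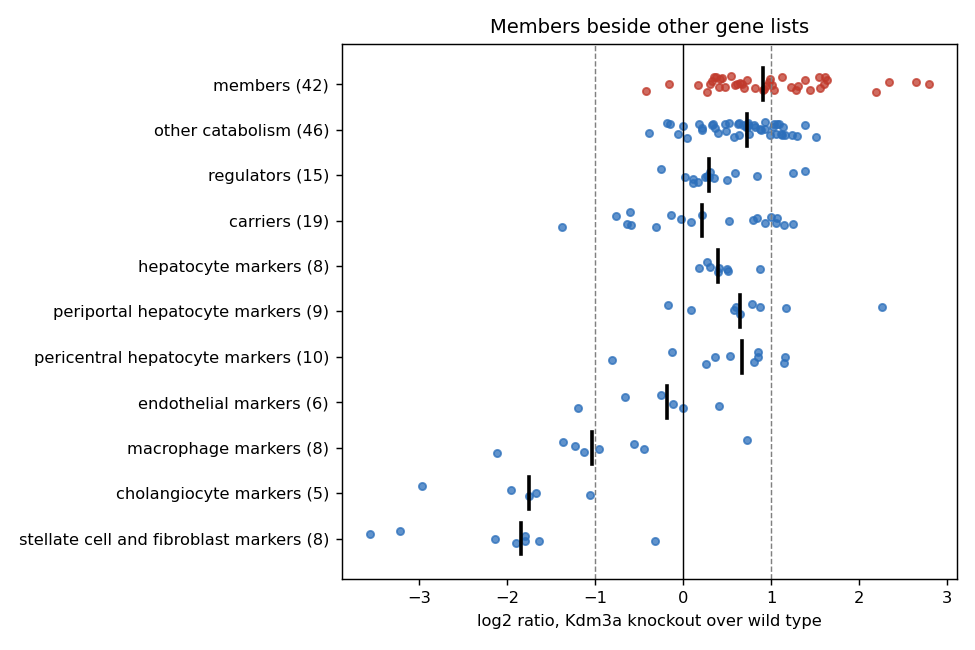
Log2 ratio of knockout over wild type for each gene of the lists, with the number of genes in brackets; the black bar is the list's median and dashed lines mark 2-fold. Medians run from 0.91 for the amino acid catabolism members down to -1.85 for stellate cell and fibroblast markers, with hepatocyte markers at 0.40.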

How the data were processed

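Total liver RNA (250 ng) was labelled with biotin as cRNA for Affymetrix arrays, per the labels' protocols. The authors deposited 1 linear intensity per probe set, made with MAS5 per the submitters' processing notes; settings, detection calls and build are not given there. Both arrays had a mean of 500.004 once 2% was trimmed at either end, so scaling preceded deposit. Groups came from the genotype labels, with 1 array each, and the number of arrays limits the precision.

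Of 45101 probe sets, 34945 named 1 gene. A gene took its brightest probe set. Signals under a floor of 46.5, the 40th percentile, were raised to it. Genes compared as background, regulators, carriers and markers had to reach the median mean signal, 73.7; members and the further breakdown enzymes had no filter. Ratios are log2 of knockout over wild type, counted at 2-fold. Python 3.11.15, pandas 2.3.3 and statsmodels 0.14.6 were used, and the calculation was tested on simulated data. Members, lists and motifs were chosen with earlier results of these data known. Named genes are all members, Kdm3a, and up to 2 highest and 2 lowest of the breakdown, regulator and carrier lists. Ppm1k, Bcat1 and Bcat2, the regulators Creb1 and Ppargc1a, and the chromosome neighbours were chosen after their values were seen. So were the marker genes Slc5a2, Cela1, Prss2, Tspan8, Epcam, Sox9, Apoa1, Apob and Clec4f, and Slc1a2, Hnf4a and Cps1, which stand on several lists. Alternatives were 5 other scalings, 3 floors, other probe set choices, 2 filters and 2 sizes.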

Additional observations from a re-analysis of the deposited data

How the results depend on the processing

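No paired analysis was possible because each group holds 1 array, and for the same reason no replicate could be left out. Of the 17 genes at least 2-fold higher, 14 were so in each of the 13 settings that gave them a value, the reported one included. Ftcd, Hpd and Aldh4a1 fell under 2-fold in some. These settings varied scaling, floor, probe set and filter. The floors and filters left the value of every amino acid gene unchanged, because all lay above them. Only the scalings and the probe set choices could therefore move these genes. Across the same settings 14 to 22 amino acid genes reached 2-fold upwards and 0 downwards; with the size set at 1.5-fold the count was 28 and at 3-fold it was 7. Their median log2 ratio was 0.82 after centring on array medians, 0.76 after quantile normalization and after loess (span 0.30), 0.78 with scaling on the hybridisation controls and 1.08 with the poly-A controls, where the median of all genes was -0.12, 0.02, -0.02, -0.16 and 0.15. For the 46 further enzymes, the count at least 2-fold higher was 8 after centring, 8 after loess and 5 with hybridisation controls, 29 at 1.5-fold and 0 at 3-fold; a floor at the 20th percentile, or none, put 1 gene lower, the dim Bcat1. Their median was 0.64 after centring and after loess, and 0.60 and 0.90 with the hybridisation and poly-A controls. It was 0.63 without probe sets whose names end in _s_at, _x_at, _a_at or _f_at. The median of Cdo1 and Csad, 0.08, turned negative after centring (-0.010), quantile normalization (-0.11), loess (-0.10) and hybridisation scaling (-0.048). The mean of both probe sets of Hgd gave 1.35. The cause was not tested where an alternative moved a value. Over all genes, the counts at least 2-fold higher and lower, 448 and 1048 as reported, were 250 and 702 with the floor at the 60th percentile, 685 and 796 with poly-A scaling, and 210 and 564 among the 8199 genes above the 70th percentile; they were 1296 and 2038 at 1.5-fold and 102 and 409 at 3-fold. Every comparison rests on a single array per genotype, and those of Bcat1, Bcat2, Prss2 and the second probe sets of Hgd and Etnppl also on a signal below the floor.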

Other observations

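The genes next to the 17 enzymes on the chromosome, in the order of RefSeq's protein-coding genes (GRCm38.p6), were read after the values of the enzymes had been seen. Hal and Amdhd1, which act in the same pathway, are direct neighbours on chromosome 10, with log2 ratios of 2.80 and 1.54. Of the genes on either side of this pair, Lta4h, the leukotriene hydrolase next to Hal, had signals of 1801 and 1656 on the wild-type and knockout arrays (-0.12, and 0.93 by its other probe set). Ccdc38, next to Amdhd1, was not among the genes compared and has no ratio.

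Of 32 neighbours that are not amino acid genes, 19 were measured, with 1 at least 2-fold higher, 5 at least 2-fold lower and a median log2 ratio of -0.26; over all genes compared, 3.83% were at least 2-fold higher, 8.96% were lower and the median was -0.02. The higher one was Tk1, the thymidine kinase of DNA precursor salvage, which lies next to Afmid and had 488.5 and 1192 (1.29, by 1 probe set). Birc5, a mitotic survival protein on the other side of Afmid, had 153.4 and 74.6 (-1.04). The lowest was the collagen gene Col6a2 beside Ftcd, with 749.8 and 134.2 (-2.48, and -1.60 by its other probe set).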
